A study of Homo sapiens with 2 samples.

Results

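The genes examined were 5 that encode antimicrobial granule proteins of phagocytes (MPO, ELANE, AZU1, PRTN3 and LYZ) and 4 that encode subunits of the phagocyte NADPH oxidase (NCF1, NCF4, CYBA and CYBB). They were taken by symbol as 9 of the 19775 genes that have a probe set of their own, and they are read by 16 such probe sets. A further probe set is assigned jointly to NCF1 and to its pseudogenes NCF1B and NCF1C, and is described apart. The 2 arrays measured KG1, an established human line from an acute myeloid leukaemia that resembles early progenitors. For the siRNA-Tbet array, 1.98 µg of siRNA directed at T-bet was brought into the cells by electroporation, and for the siRNAc array the same amount of a control siRNA, and after 5 h of rest both received interleukin-18 (IL-18) at 10 ng/ml for 12 h. Both groups thus share the electroporation and the cytokine, and no array of unstimulated or untransfected cells was analysed here. With 1 array a group no value has a replicate error and no difference was tested, and the siRNA, the culture and the array cannot be told apart.

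Myeloperoxidase (MPO) makes hypochlorous acid from hydrogen peroxide and chloride. Neutrophil elastase (ELANE), azurocidin (AZU1) and proteinase 3 (PRTN3) are serine proteases or, for azurocidin, an inactive relative, and are packed with it into the azurophil granules of promyelocytes, and lysozyme (LYZ) cuts the bacterial cell wall. The NADPH oxidase supplies the superoxide that becomes the peroxide. Its membrane part, cytochrome b558, is made of gp91phox (CYBB), which carries the electrons, and p22phox (CYBA), which stabilises it. On activation, p47phox (NCF1, the organiser) and p40phox (NCF4, which binds a phosphoinositide of the phagosome) join it from the cytosol together with p67phox and a Rac GTPase. Inherited loss of a subunit causes chronic granulomatous disease. T-bet, the product of TBX21, drives interferon-γ production in type 1 lymphocytes, and IL-18 stimulates cells to release this interferon.

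RefSeq promoters (GRCh38.p14) were matched for 5 of the 9 genes. The 250 bases before the start of 3 oxidase genes are shown because these genes stand for the 3 outcomes described below, namely a lower signal with siRNA-Tbet (NCF1), a signal that hardly differed (CYBA) and signals below the array medians (CYBB). Capitals mark the core of PU.1 sites (GAGGAA) and a T-box core (GGTGTG), each searched on both strands. PU.1 is a myeloid factor known to act on the promoters of NCF1 and CYBB, and T-box cores are bound by factors of the T-bet family.
NCF1, chr7:74773761-74774010, plus strand: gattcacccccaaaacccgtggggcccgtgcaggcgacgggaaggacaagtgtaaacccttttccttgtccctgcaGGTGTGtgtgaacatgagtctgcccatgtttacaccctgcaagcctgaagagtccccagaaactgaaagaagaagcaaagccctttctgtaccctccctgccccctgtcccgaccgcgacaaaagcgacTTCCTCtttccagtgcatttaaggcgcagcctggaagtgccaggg
CYBA, chr16:88651054-88651303, minus strand: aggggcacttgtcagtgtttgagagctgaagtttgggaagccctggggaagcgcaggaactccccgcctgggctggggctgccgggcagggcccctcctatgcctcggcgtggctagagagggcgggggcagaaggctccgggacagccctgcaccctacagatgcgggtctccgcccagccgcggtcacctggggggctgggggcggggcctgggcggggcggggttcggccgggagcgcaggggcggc
CYBB, chrX:37779809-37780058, plus strand: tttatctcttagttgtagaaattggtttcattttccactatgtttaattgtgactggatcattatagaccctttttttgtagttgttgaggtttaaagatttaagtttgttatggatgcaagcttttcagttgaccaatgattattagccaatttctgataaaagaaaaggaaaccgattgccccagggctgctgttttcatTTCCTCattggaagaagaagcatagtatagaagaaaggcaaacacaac
The PU.1 core lay 45 to 40 bases before the start of NCF1 and 48 to 43 bases before that of CYBB, on the other strand in both. It was also found at 88 to 83 bases before PRTN3, so 3 of the 5 promoters held it, against 23.6% of all 35116 promoters of this length. The T-box core lay 174 to 169 bases before the start of NCF1 and 204 to 199 bases before that of AZU1, which is 2 of 5 promoters against 14.2% of all. A C/EBP motif (TTNNGNAAT, both strands) was found 111 to 103 bases before AZU1 and in no other of the 5 promoters, against 9.85% of all. None of these motifs overlapped another. A match describes the letters and does not show that a factor binds there.

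The arrays carried 54675 probe sets each and shared a trimmed mean signal of 1000 in arbitrary MAS5 units, with medians over the non-control probe sets of 144 (siRNA-Tbet) and 146 (siRNAc). Signals under these medians were raised to them before a ratio was taken. A probe set is called measured here if its signal exceeded the median on 1 or both arrays. The siRNA target TBX21 gave 1839 with siRNA-Tbet and 3581 with siRNAc, or 51.3% of the control. Among the markers of the cell line, CD34 had signals of 17130 with siRNA-Tbet and 15839 with siRNAc, and 5 of 8 myeloid progenitor markers were measured. KIT, PROM1 and SPINK2 were below the medians on both arrays. Markers of mature phagocytes were measured in part. Of 8 monocyte and macrophage markers 4 were measured, among them S100A8 and S100A9 (14041 with siRNA-Tbet and 14309 with siRNAc), while CD14 gave 4.54 with siRNA-Tbet and 6.34 with siRNAc. Of 10 neutrophil markers 5 were measured, among them CSF3R (1310 with siRNA-Tbet and 1377 with siRNAc), while CEACAM8, FCGR3B, MMP8, LTF and CAMP were below the medians on both arrays. In such bulk RNA, fewer cells of a type and less RNA per cell cannot be told apart. Signals of different probe sets depend on their probes, so levels were compared between arrays and not between genes.

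Of the 9 genes, 5 were measured and 4 were not (ELANE, AZU1, PRTN3 and CYBB). For comparison, 61.5% of all genes on the array were measured. By probe set, 7 of 16 were measured, against 57.3% of all probe sets with 1 gene. The oxidase genes accounted for 5 of these 7 probe sets, and all 5 lay above the medians on both arrays. The granule enzymes accounted for 2, of which only 1, for LYZ, lay above the medians on both.

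**Figure D1:**
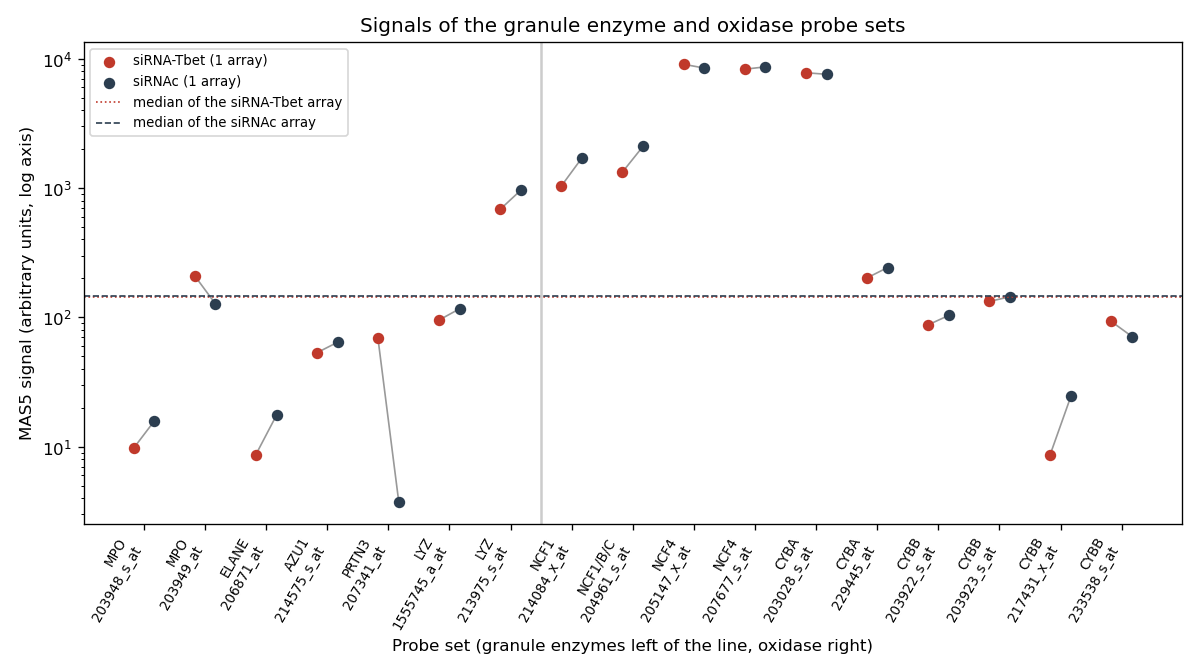
Signal of each probe set in arbitrary MAS5 units on a log axis, with siRNA-Tbet at the left and siRNAc at the right of each joined pair (1 array each, no error bars) and the array medians as lines. The probe sets of NCF4 and the brighter one of CYBA lie far above the medians on both arrays, those of NCF1 and the brighter one of LYZ are lower with siRNA-Tbet, and the 4 of CYBB lie below the medians. Heights are comparable between the arrays and not between probe sets.

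Of the granule enzymes, LYZ was above the medians on both arrays and was lower with siRNA-Tbet. Its probe set 213975_s_at gave 684 with siRNA-Tbet and 965 with siRNAc, a log2 ratio of -0.50, or 29.1% lower. Probe sets of that signal decile had log2 ratios from -0.48 (5th percentile) to 0.44 (95th percentile), so LYZ lay at the lower edge of them, at percentile 4.59. The technical spread at that signal, taken between the log2 ratios of different probe sets of the same gene, was 0.27. The second probe set of LYZ, 1555745_a_at, had 95.3 with siRNA-Tbet and 117 with siRNAc, both below the medians, so it gave no ratio.

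MPO was near the medians on 1 probe set and far below them on the other. Probe set 203949_at gave 210 with siRNA-Tbet and 127 with siRNAc, at least 1.43-fold higher (log2 ratio 0.52), since the siRNAc signal lay under the median of 146. The technical spread in the lowest signal bin was 0.40, and it too was taken from floored ratios. The bound lay at the upper edge of its decile (95th percentile 0.53), at percentile 94.6, in a range that was itself taken from floored ratios. With a floor at the 25th percentile the log2 ratio was 0.72. Probe set 203948_s_at gave 9.71 with siRNA-Tbet and 15.8 with siRNAc, both below the medians, so it gave no ratio.

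The 3 genes of the serine protease family were not measured on either array. ELANE gave 8.64 with siRNA-Tbet and 17.5 with siRNAc. AZU1 gave 53.2 with siRNA-Tbet and 64.2 with siRNAc. PRTN3 gave 68.8 with siRNA-Tbet and 3.76 with siRNAc, and although these values lie far apart, both are under the medians, where MAS5 signals are noisy. No fold is given for these genes.

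Among the oxidase genes, NCF1 had lower signals with siRNA-Tbet. By the floored ratios it alone of the 5 measured genes differed at least 1.5-fold, while the MPO ratio is a bound. The probe set of NCF1 alone, 214084_x_at, gave 1036 with siRNA-Tbet and 1714 with siRNAc, a log2 ratio of -0.73, or 1.65-fold lower. The technical spread there was 0.22, and only 0.595% of the 2354 probe sets of its signal decile had a lower ratio. The probe set that also reads NCF1B and NCF1C, 204961_s_at, gave 1328 with siRNA-Tbet and 2109 with siRNAc, a log2 ratio of -0.67, or 1.59-fold lower. Both probe sets were lower by a like amount, but they read the same family of near-identical transcripts in the same RNA and are not replicates. The suffix _x_at marks probes that can bind other transcripts, so the share of NCF1 itself in both values is uncertain.

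NCF4 was bright and hardly differed. Probe set 205147_x_at gave 9059 with siRNA-Tbet and 8468 with siRNAc, a log2 ratio of 0.10. Probe set 207677_s_at gave 8297 with siRNA-Tbet and 8651 with siRNAc, a log2 ratio of -0.06. The probe sets thus pointed in opposite directions, and both ratios were smaller than the technical spread of 0.13.

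CYBA, the partner of gp91phox in the membrane, was also bright on its main probe set. Probe set 203028_s_at gave 7795 with siRNA-Tbet and 7576 with siRNAc, a log2 ratio of 0.04 at a technical spread of 0.13. The dim probe set 229445_at gave 202 with siRNA-Tbet and 243 with siRNAc, a log2 ratio of -0.27 that was smaller than the technical spread of 0.40 at that signal.

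CYBB was below the medians on all of its 4 probe sets. Probe set 203923_s_at came closest, with 133 for siRNA-Tbet and 144 for siRNAc. The others gave 87.4 with siRNA-Tbet and 103 with siRNAc (203922_s_at), 92.9 with siRNA-Tbet and 71.0 with siRNAc (233538_s_at), and 8.68 with siRNA-Tbet and 24.6 with siRNAc (217431_x_at). Of the 4 probe sets, 3 had the lower value with siRNA-Tbet, and at this signal no difference was detectable. The arrays thus measured the transcripts of NCF4, CYBA and the NCF1 family, and not that of CYBB, the subunit that carries the electrons.

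**Figure D2:**
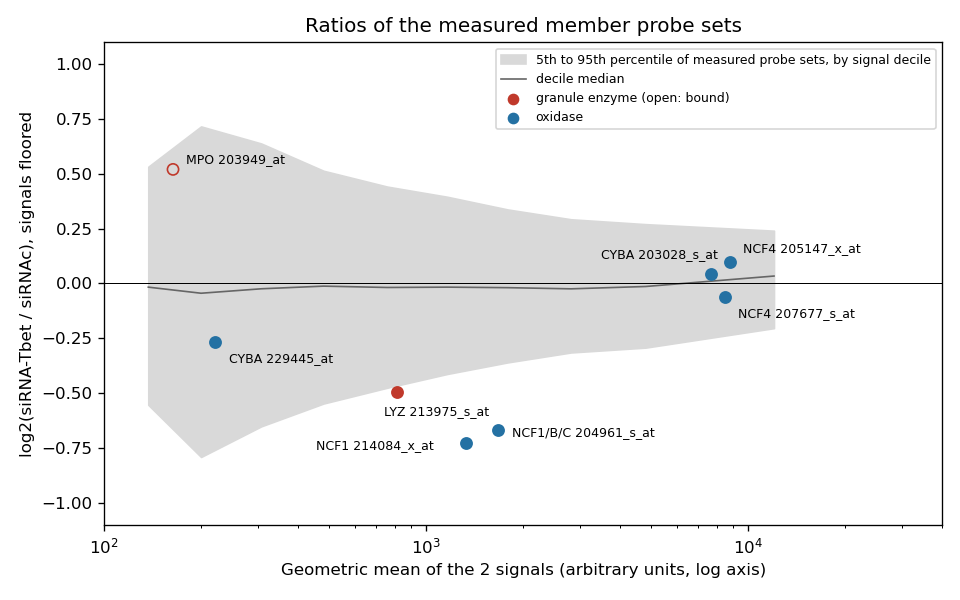
Log2 ratio, siRNA-Tbet over siRNAc, of each measured probe set (floored signals) against the geometric mean of its signals on a log axis. The grey band runs from the 5th to the 95th percentile of all measured probe sets by signal decile. Both NCF1 probe sets, at -0.73 and -0.67, lie below the band and LYZ, at -0.50, at its lower edge. NCF4 and CYBA lie inside it, and MPO (open circle, a bound) lies inside it near its upper edge.

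Of the 5 measured genes, 3 were lower with siRNA-Tbet (LYZ, NCF1 and NCF4) and 2 were higher (MPO and CYBA), while 53.7% of all measured genes were lower. NCF4 was lower by its chosen probe set and higher by its _x_at one. With _x_at probe sets allowed, 2 of 5 genes were lower, against 53.6% of all. By the chosen probe sets the median log2 ratio of the 5 genes was -0.06, against -0.02 over all 12164 measured genes. NCF1 differed at least 1.5-fold, 1 of 5 genes against 4.92% of all in either direction and 2.96% lower. By the floored ratios no measured member was at least 1.5-fold higher, against 1.96% of all, and none differed 2-fold, against 0.543% of all. The MPO ratio is a bound and could be larger. With a floor at the 25th percentile its log2 value was 0.72, past 1.5-fold. The higher signal exceeded the lower by at least 25% in MPO, LYZ and NCF1, 3 of 5 genes against 18.7% of all. By probe set, 4 of 7 were lower, against 51.8% of all, and 1 of 7 was at least 1.5-fold lower, against 3.31% of all. The members are thus too few for these shares to be told from the background. The measured members' ratios ran from -0.73 to 0.52. The 2 measured granule enzymes differed in sign, with MPO a bound. Among the oxidase subunits, the ratios of NCF4 and CYBA were smaller than the technical spread. A shared direction could therefore not be judged in either group. The monocyte and macrophage markers summed to 25300 with siRNA-Tbet and 25086 with siRNAc, with most of the signal from S100A8 and S100A9. Of the 4 measured ones, 2 were lower and 2 higher. Within that list CSF1R, a marker chosen after its values were seen, gave 144 with siRNA-Tbet and 220 with siRNAc, at least 1.52-fold lower. After quantile normalization, or with the signal-dependent trend removed, 0 of these 4 differed 1.5-fold. The neutrophil markers summed to 2189 with siRNA-Tbet and 2281 with siRNAc, with most of the signal from CSF3R. Of the 5 measured neutrophil markers, 2 were lower and 3 higher. Among them FPR1, chosen in the same way as CSF1R, gave 119 with siRNA-Tbet and 215 with siRNAc, at least 1.49-fold lower. The T and B lymphocyte markers summed to 2146 with siRNA-Tbet and 2852 with siRNAc, with 6 of 9 measured and 5 of these lower (4 after median scaling). CD79A, the brightest, gave 528 with siRNA-Tbet and 530 with siRNAc, and CD2 gave 339 with siRNA-Tbet and 663 with siRNAc. The myeloid progenitor markers summed to 61745 with siRNA-Tbet and 50570 with siRNAc, with 4 of the 5 measured ones higher. MYB, the brightest, gave 26265 with siRNA-Tbet and 20627 with siRNAc, but its other probe set had a log2 ratio of -0.32. GATA2, chosen after its values were seen, gave 15712 with siRNA-Tbet and 11483 with siRNAc. The eosinophil, basophil and mast cell markers summed to 25876 with siRNA-Tbet and 21803 with siRNAc, with most of the signal from HDC (22249 with siRNA-Tbet and 18018 with siRNAc). Of these 7 genes 3 were measured by their chosen probe set, and TPSAB1 was above the medians on _x_at probe sets alone. The part of these markers in the lower NCF1 and LYZ signals was not tested.

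The partners of the oxidase were nearly all measured and differed little by their chosen probe sets. Of 12 partner genes with a probe set of their own, 11 were measured, 8 of them lower and 3 higher with siRNA-Tbet, with a median log2 ratio of -0.05 and 0 genes at least 1.5-fold different. Over all measured genes 53.7% were lower and 4.92% differed 1.5-fold. RAC2, the Rac GTPase of blood cells that completes the active oxidase, gave 31505 with siRNA-Tbet and 30582 with siRNAc. CYBC1, a chaperone of the gp91phox and p22phox heterodimer, had the highest ratio, with 3540 with siRNA-Tbet and 2789 with siRNAc (log2 ratio 0.34). PIK3CG, a phosphoinositide kinase upstream of the oxidase, had the lowest ratio (-0.22), but its other probe sets had 0.27 and 0.51. ARHGDIA, which holds Rac in the cytosol, had -0.12 on the log2 scale, but its other 3 probe sets ran from -0.07 to 0.13. RAP1A and ARHGDIB, named after their values were seen, had 0.03 and -0.01. The other probe set of RAP1A had -0.65, and those of ARHGDIB ran from 0.20 to 0.55. The count of lower genes moved with the scaling, as 6 of 11 were lower after median scaling and 10 of 11 with the signal-dependent trend removed. Of the NADPH oxidases of other tissues and their cofactors, 2 of 9 were measured, NOX1 (175 with siRNA-Tbet and 168 with siRNAc) and the activator NOXA1 (351 with siRNA-Tbet and 435 with siRNAc). NOX3, NOX4, NOX5, DUOX1 and DUOX2 were below the medians on both arrays, as CYBB was.

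A list of other azurophil granule contents and of genes for their processing was partly measured. Of its 9 genes with a probe set of their own, 7 were measured. Of these 4 were lower (53.7% of all measured genes were) and 3 higher, with a median log2 ratio of -0.05. The split was 5 lower and 2 higher after quantile normalization. CTSG, cathepsin G, a further serine protease of the granule, gave 247 with siRNA-Tbet and 344 with siRNAc, a log2 ratio of -0.47 at a signal where the technical spread was near 0.40. SRGN, the proteoglycan that packs the granule proteases, gave 25177 with siRNA-Tbet and 24313 with siRNAc. CD63, a granule membrane protein, had a log2 ratio of -0.09. RNASE2, an antimicrobial ribonuclease, and SERPINB1, an inhibitor of the granule proteases, had 0.06 each. CTSC, the peptidase that activates the granule proteases, is outside the naming rule and was chosen after its values were seen. It gave 14637 with siRNA-Tbet and 15483 with siRNAc. Of the granule proteases, CTSG was measured, while ELANE and PRTN3 were not. The lysosomal hydrolases that azurophil granules share with lysosomes were all measured, 10 of 10, with 4 lower and 6 higher and a median of 0.03. GUSB, β-glucuronidase, gave 7065 with siRNA-Tbet and 6871 with siRNAc. By the chosen probe sets the list ran from -0.16 (FUCA1) to 0.10 (GLA). CTSB, outside the naming rule and chosen after its values were seen, had -0.05, but its other 4 probe sets ran from -0.69 to -0.20. NEU1, a sialidase, had -0.06, and HEXA, a hexosaminidase subunit, had 0.08 but -0.15 on each of its other probe sets.

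Genes of the later granule types were mostly not measured. Of 14 specific and gelatinase granule genes, 3 were measured, 1 lower and 2 higher, with a median log2 ratio of 0.04. Over all genes 61.5% were measured, and of those 53.7% were lower. MMP9, gelatinase B, gave 5414 with siRNA-Tbet and 5249 with siRNAc. TCN1, which binds vitamin B12, gave 186 with siRNA-Tbet and 308 with siRNAc, 1.66-fold lower at low signals. LCN2, which sequesters iron carriers of bacteria, gave 173 with siRNA-Tbet and 162 with siRNAc. Of 7 inhibitors of neutrophil serine proteases, 5 were measured, 3 lower and 2 higher, or 2 lower and 3 higher after median scaling. SERPINB1 was the brightest, with 6730 with siRNA-Tbet and 6450 with siRNAc. SLPI gave 168 with siRNA-Tbet and 24.9 with siRNAc, at least 1.15-fold higher. SERPINB9 and A2M had log2 ratios of -0.04 each, that of A2M resting on the median of the siRNA-Tbet array.

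Transcription factors that control granule and oxidase genes were present on both arrays. Of 13 with a probe set of their own, 12 were measured, 9 lower and 3 higher, with a median log2 ratio of -0.07 and 0 genes at least 1.5-fold different, against 53.7% lower and 4.92% 1.5-fold different over all measured genes. After median scaling 8 of 12 were lower, against 49.3% of all. IRF8, a factor of monocyte development that acts on oxidase genes, was the lowest, with 713 with siRNA-Tbet and 924 with siRNAc (log2 ratio -0.37). GFI1, a repressor needed for neutrophil development, gave 509 with siRNA-Tbet and 643 with siRNAc (-0.34). MYB, a progenitor factor that acts on the MPO and ELANE genes, gave 26265 with siRNA-Tbet and 20627 with siRNAc (0.35), but -0.32 on its other probe set. KMT2A, a histone methyltransferase, had 0.12, and its other probe sets ran from -0.39 to 0.62. SPI1, which encodes PU.1, is outside the naming rule and was picked because its motif was searched. It gave 1566 with siRNA-Tbet and 1523 with siRNAc, a log2 ratio of 0.04.

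Enzymes that remove superoxide and peroxide had slightly higher signals in the deposited scaling. Higher signals were seen in 11 of 15 measured genes and lower ones in 4, at a median log2 ratio of 0.07, while 53.7% of all measured genes were lower. These are bright genes and the split depended on the scaling. It was 8 higher and 7 lower after quantile normalization and 9 higher and 6 lower with the signal-dependent trend removed. PRDX1, a peroxiredoxin, gave 37442 with siRNA-Tbet and 31274 with siRNAc (0.26). TXNRD1, thioredoxin reductase, gave 15878 with siRNA-Tbet and 13445 with siRNAc (0.24). SOD1, the cytosolic superoxide dismutase, gave 36115 with siRNA-Tbet and 34043 with siRNAc (0.09). GSR, glutathione reductase, was 1.52-fold lower (795 with siRNA-Tbet and 1212 with siRNAc), but its other probe set had a log2 ratio of 0.20. SOD2, the mitochondrial superoxide dismutase, gave 1664 with siRNA-Tbet and 2193 with siRNAc (-0.40).

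**Figure D3:**
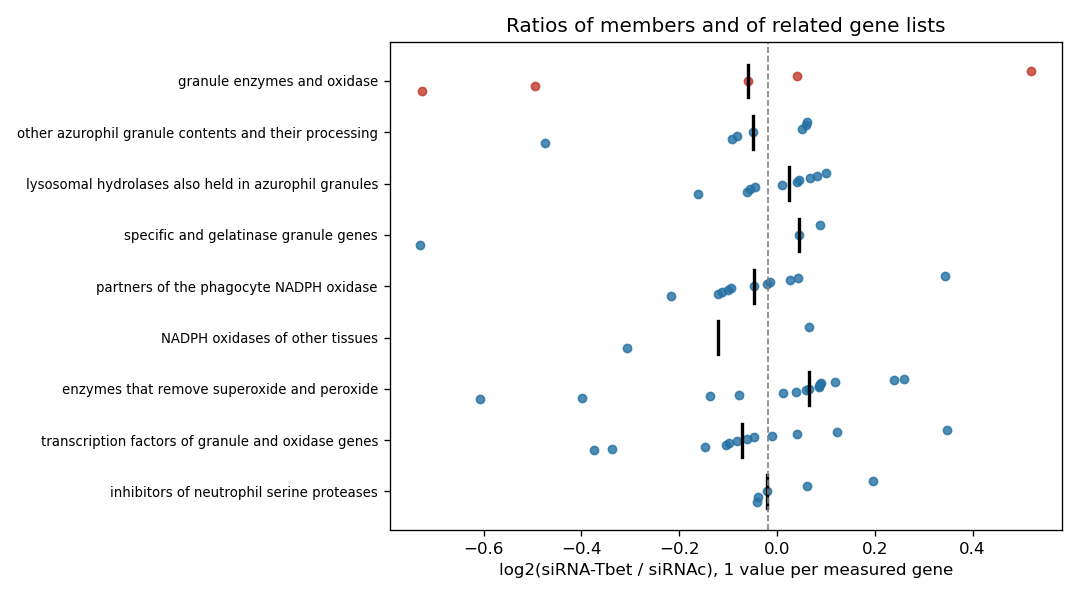
Log2 ratio, siRNA-Tbet over siRNAc, of each measured gene (1 point a gene, by its chosen probe set) in the members and in 8 related lists; black bars are list medians and the dashed line is the median of all measured genes, -0.02. The members run from -0.73 (NCF1) to 0.52 (MPO, a bound), and the 8 list medians lie between -0.12 and 0.07.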

How the data were processed

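The authors deposited 1 linear signal intensity for each probe set of each array, made with MAS5 per the submitters' processing notes, which give no version. MAS5 combines perfect-match and mismatch probes, so low signals are noisy, and the brightest signals can be compressed. Scanner files and detection calls were not used here.

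Signals were used as deposited and raised, where lower, to the median of all non-control probe sets on their array. Ratios are log2(siRNA-Tbet / siRNAc), and a ratio against a raised signal is a bound. Probe sets were named from the platform's table, with symbols updated by Entrez number to RefSeq GRCh38.p14 (41037 of 41091 with 1 gene matched). Each gene was read by its brightest probe set, avoiding _x_at where it had another; probe sets with several genes were left out. For the technical spread, the floored log2 ratios of the 2 brightest measured probe sets of a gene were subtracted. The SD of these differences over genes was scaled to 1 probe set, in 10 signal bins. It leaves out variation between cultures and arrays, and the number of arrays limits the precision. No test was made. Other scalings (median, quantile, lowess with span 0.3), floors, folds and probe set choices were tried.

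The naming rule took all members, TBX21, of each pathway list the 2 genes with the highest and the 2 with the lowest ratio and the brightest gene, and of each marker list the brightest gene; other markers, genes below the medians and chromosomal neighbours were named after their values were seen. A gene counts as measured by its chosen probe set. The members, lists and rules were chosen with earlier results of these data known. Promoters are RefSeq's. Python 3.11.15, pandas 2.3.3 and statsmodels 0.14.6 were used, and the procedure was tested on simulated data.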

Additional observations from a re-analysis of the deposited data

How the results depend on the processing

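Leaving out an array was not possible, and no paired analysis was possible because each group has 1 array. The log2 ratios of the measured members kept their sign under every scaling and floor that gave a value. NCF1 ran from -0.73 to -0.71 and the probe set shared with its pseudogenes from -0.67 to -0.65. The signals of both lie above every floor tried, so the floors could not move these values. LYZ was -0.10 with a floor at the 75th percentile, as that floor lies above its siRNA-Tbet signal. The median of the members stayed within the technical spread of its value, from -0.12 to 0.04, and turned positive where _x_at probe sets were allowed (0.04).

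Lower with siRNA-Tbet were 5 of 8 genes (52.0% of all) and 8 of 13 probe sets (50.8% of all) with a floor at the 25th percentile. With no floor these were 6 of 9 genes (51.8% of all) and 11 of 16 probe sets (51.0% of all). By second probe sets 1 of 2 genes was lower (49.8% of all), and with _x_at allowed 2 of 5 (53.6% of all). With a floor at the 75th percentile 3 of 4 genes were lower (53.5% of all). At least 1.5-fold different were 3 of 8 genes with a floor at the 25th percentile (21.1% of all genes), 4 of 9 with no floor (29.4% of all), 0 of 2 by second probe sets (6.84% of all) and, in an alternative chosen after seeing the data, 0 of 4 without NCF1. The count was 3 of 5 where a 25% excess of the higher signal sufficed (18.7% of all) and 0 of 5 at 2-fold (0.543% of all). Using the shared probe set for NCF1, also chosen after seeing the data, left these counts the same. Low signal limits ELANE, AZU1, PRTN3 and CYBB: a difference in them was not detectable here.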

Other observations

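The genes next to the members on their chromosomes were read as well, taking the nearest 2 protein-coding genes on each side in the RefSeq order of GRCh38.p14, a rule chosen after the data were seen. Of 28 such neighbours that are not members, 19 were measured, 11 lower and 8 higher with siRNA-Tbet, and 4 differed at least 1.5-fold, 3 of them on a bound at low signals. Over all genes 61.5% were measured, and of those 53.7% were lower and 4.92% differed 1.5-fold. NCF1, which was lower, lies between GTF2I and GTF2IRD2. GTF2I, a transcription factor with pseudogenes of its own, gave 3182 with siRNA-Tbet and 2625 with siRNAc (log2 ratio 0.28), and GTF2IRD2 gave 2052 with siRNA-Tbet and 2286 with siRNAc (-0.16). Neither differed 1.5-fold.

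AZU1, PRTN3 and ELANE lie side by side on chromosome 19, and the next gene, CFD, encodes complement factor D, a serine protease. CFD was measured where the other 3 were not. Its signals were 139 with siRNA-Tbet and 283 with siRNAc, at least 1.96-fold lower, on 1 probe set at a signal where the technical spread is near 0.40. IL17C, next to CYBA, gave 143 with siRNA-Tbet and 303 with siRNAc, at least 2.10-fold lower, and SNAI3, also near CYBA, gave 204 with siRNA-Tbet and 326 with siRNAc, 1.60-fold lower. TSPOAP1, next to MPO, gave 244 with siRNA-Tbet and 87.3 with siRNAc, at least 1.67-fold higher. The other measured neighbours of MPO, MKS1 and SUPT4H1, had log2 ratios of 0.27 and -0.14. LPO, lactoperoxidase, on the other side of MPO, was below the medians on both arrays. No difference of these neighbours was tested.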
